A study of Mus musculus with 12 samples.

Results

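YAP and TEAD genes were followed across p53-/- neural stem cells, oligodendrocyte precursor cells and astrocytes and across the 3 HRasL61 lines made from them. The set held 10 genes: the coactivators Yap1 and Wwtr1, their DNA-binding partners Tead1 and Tead4, the target genes Ccn1, Ccn2, Ankrd1 and Axl, and Amotl2 and Lats2, which act both as inhibitors and as targets of the pathway. Every probe set that the array annotation assigns to 1 of these symbols alone was taken, which gave 25 of the 45101 probe sets on the array. Of these, 23 passed a filter on low signal, and all 10 genes were represented among the 12835 genes tested. The other 2 were 1 probe set of Axl, with a log2 signal of 2.49 to 2.84 on all 12 arrays, and 1 of Lats2, at 3.77 to 4.71. A further Lats2 probe set that is shared with another symbol was left out.

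Expression was measured on 12 Affymetrix arrays, 2 for each of 6 groups, and all 6 groups were p53-/- cells of BL6 mice that came from the telencephalon at embryonic day 14.5. NSCL61, OPCL61 and ASTL61 were stable lines made from NSC, OPC and AST. They were electroporated with a plasmid for HRasL61 (a constitutively active Ras protein) and EGFP together with a neomycin resistance plasmid, selected with neomycin at 0.5 mg/ml, and cells with GFP were sorted. NSC were neural stem cells grown without serum as floating spheres. OPC were oligodendrocyte precursor cells that had been induced from NSC with 10 ng/ml PDGFAA, 2 ng/ml bFGF and 0.25% serum and then immunopanned. AST were astrocytes induced from NSC with 10% serum over 3 weeks. No parent group is described as electroporated, selected or sorted, so HRasL61 and these steps cannot be told apart, and the medium of the lines is not given in the sources used here. Serum differed between the 3 parents, as did the other steps described (growth as floating spheres, added PDGFAA and bFGF, immunopanning and 3 weeks of induction). None of these can be told apart from cell type in comparisons of the parents. The labels do not say whether the 2 arrays of a group came from separate cultures, so p-values measure the spread between these arrays, which may be technical. In bulk RNA, fewer cells of a type and less RNA per cell cannot be told apart.

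YAP, encoded by Yap1, and its relative TAZ, encoded by Wwtr1, are coactivators that do not bind DNA themselves. The Hippo kinase cascade ends in LATS1 and LATS2, which phosphorylate YAP and TAZ and keep them out of the nucleus; cells that are spread, stretched or at low density generally have more nuclear YAP and TAZ. In the nucleus both bind TEAD transcription factors, which carry them to genes such as Ccn1 (CYR61) and Ccn2 (CTGF). In the developing mammalian brain YAP is found in neural progenitors and in astrocytes. Much of YAP and TAZ regulation acts on the proteins, and arrays measure only transcripts.

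TEAD factors bind the core CATTCC, and RefSeq promoter windows (GRCm38.p6, 250 bases before to 50 after each gene start) were searched for it on both strands. Windows were found for 7 of the 10 genes, and all 7 held the core, in 8 of their 9 windows. Across the genome 14.7% of windows and 16.6% of genes held it. The AP-1 core TGANTCA was in 0 of the 9 windows, against 7.81% of windows overall. Tead1, Tead4 and Ccn2 had no window in the table. A match is a description of the letters and not evidence of binding. The upstream sequences of Ccn1 (chr3:145649986-145650235, minus strand), Ankrd1 (chr19:36119845-36120094, minus strand) and Axl (chr7:25788734-25788983, minus strand) are shown because the results below turn on these 3 targets. Each is written in the direction of the gene, with the last base next to the gene start and the TEAD core, or its reverse complement, in capitals.
Ccn1: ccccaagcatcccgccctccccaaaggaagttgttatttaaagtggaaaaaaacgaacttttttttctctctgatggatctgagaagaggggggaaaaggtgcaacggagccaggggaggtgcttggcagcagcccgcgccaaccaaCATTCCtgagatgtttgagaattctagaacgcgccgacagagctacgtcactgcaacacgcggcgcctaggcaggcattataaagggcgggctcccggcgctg
Ankrd1: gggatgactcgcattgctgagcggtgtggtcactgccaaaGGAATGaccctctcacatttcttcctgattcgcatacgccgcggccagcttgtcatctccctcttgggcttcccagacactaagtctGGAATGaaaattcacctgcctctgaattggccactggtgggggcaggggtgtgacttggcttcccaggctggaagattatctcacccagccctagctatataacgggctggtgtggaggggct
Axl: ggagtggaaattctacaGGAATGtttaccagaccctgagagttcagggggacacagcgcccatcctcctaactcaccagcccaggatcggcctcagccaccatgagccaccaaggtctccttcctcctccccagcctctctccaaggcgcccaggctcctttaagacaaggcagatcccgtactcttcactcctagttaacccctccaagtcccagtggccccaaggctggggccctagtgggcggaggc

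In Ccn1 the core began 103 bases before the gene start. Ankrd1 carried 2 copies, both as the reverse complement, which began 210 and 123 bases before the start; 1.36% of all windows held 2 or more. In Axl the match began 233 bases before the start. The other 4 genes are shown as the 30 bases around the match, because these 4 are the coactivator genes and the inhibitors whose levels are set beside those of the targets. They are Amotl2 (chr9:102717727-102717756, plus strand), Lats2 (chr14:57746102-57746131, minus strand), Yap1 (chr9:8004720-8004749, minus strand) and Wwtr1 (chr3:57576029-57576058, minus strand).
Amotl2: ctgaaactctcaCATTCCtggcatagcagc
Lats2: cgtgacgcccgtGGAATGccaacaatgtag
Yap1: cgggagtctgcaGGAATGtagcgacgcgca
Wwtr1: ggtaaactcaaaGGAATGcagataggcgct

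The Amotl2 match began 65 bases before the gene start and that of Lats2 lay 5 bases after it. The Yap1 and Wwtr1 matches began 141 and 136 bases before the start. Wwtr1 and Lats2 had 2 windows each, and the positions given are those in the first. In the second Wwtr1 window the match began 170 bases before the start, and the second Lats2 window held 0 matches.

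**Figure D1:**
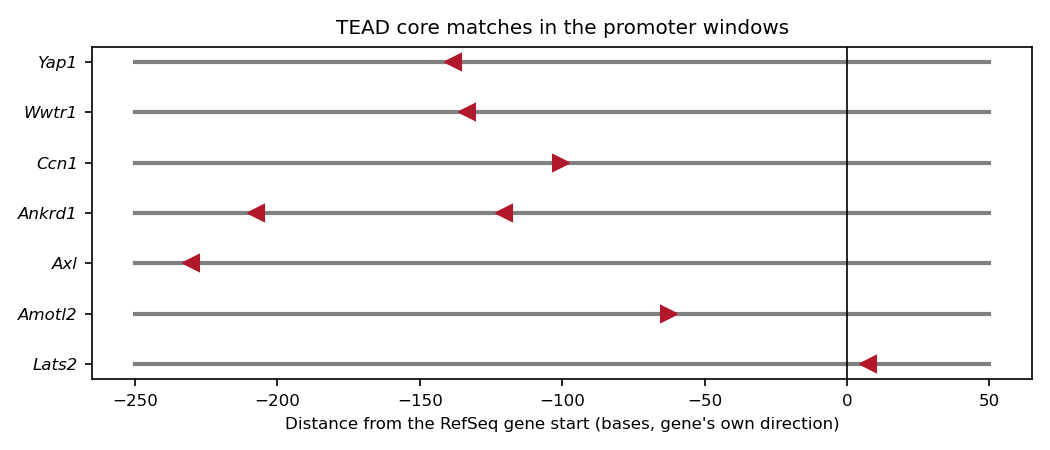
Positions of TEAD core matches in the RefSeq promoter windows of the 7 genes that have one, with only the first of 2 windows shown for Wwtr1 and Lats2. The horizontal axis is the distance in bases from the gene start in the gene's own direction, and each mark is a match. Ankrd1 shows 2 marks, and the Lats2 mark lies after the start.

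Before the members are described, the labels were checked against cell type markers. The median log2 signal of an array was 5.16 to 5.21, and the spread between the 2 arrays of a group ran from 0.193 in NSCL61 to 0.416 in NSC (SD over genes of the difference between the arrays). OPC arrays had all 8 markers of oligodendrocyte precursor cells above the filter level of 5.18, with a mean over the list of 10.65 to 11.02. The arrays labelled NSC went against their label in part: 4 of 9 stem cell markers (Prom1, Fut4, Hes5 and Lhx2) were under the filter level. Sox2 was at 4.41 and 6.79, against 11.84 and 11.66 in NSCL61. In NSC 3 of the 9, Nes, Emx2 and Msi1, were above the filter level on both arrays, against 8 in NSCL61 and 7 in each other group. Prom1 and Fut4 were also under it in OPC, ASTL61 and AST, and Hes5 in NSCL61. The stem cell list averaged 5.13 to 5.69 in NSC and 7.56 to 7.61 in NSCL61. In NSC the group means of 8 of 9 markers of fibroblasts and pericytes were above the filter level, and 7 of 9 were above it on both arrays, with a list mean of 9.37 to 10.07, against 4.87 to 4.93 in NSCL61, 4.52 to 4.84 in OPCL61 and 3.89 to 4.01 in OPC. In ASTL61 the same list averaged 7.87 to 8.43, against 6.90 to 7.40 in AST. The arrays labelled AST went against their label in part: Aqp4, Slc1a2 and Aldh1l1 of the 8 astrocyte markers were under the filter level, Aldh1l1 in all 6 groups. In AST 4 of the 8 were above it on both arrays. The astrocyte list averaged 8.34 to 8.62 in OPC, against 5.95 to 5.96 in AST, and of its 7 tested markers 5 were higher and 1 lower in OPC. S100b had a mean of 9.82 in OPC and 5.19 in AST, and Aldoc one of 13.55 in OPC and 5.52 in AST. Gja1 went the other way, with a mean of 10.11 in OPC and 11.74 in AST. In all 6 groups 5 of 6 endothelial markers were under the filter level, as were 4 or 5 of 6 microglial markers. Comparisons with NSC and with AST below are therefore comparisons with the arrays so labelled.

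Against their parents, NSCL61 and OPCL61 differed in 8 of the 10 genes each and ASTL61 in none; when 1 array was left out the count was 4 to 6 in NSCL61 and 7 to 9 in OPCL61. In OPCL61 against OPC, 7 genes rose and Amotl2 fell, where 48.5% of all genes tested passed (24.5% higher and 23.9% lower); Tead4, Axl, Ankrd1 and Wwtr1 had the largest differences. In NSCL61 against NSC, Tead4, Wwtr1 and Axl rose while Ccn2, Ccn1, Lats2, Amotl2 and Tead1 fell, where 37.8% of all genes passed (20.7% higher and 17.1% lower). Ccn1 and Ccn2 thus passed in opposite directions in the 2 lines, with Ccn2 under the filter level in both OPCL61 and OPC, and Amotl2 fell in both. Tead1 passed in opposite directions only by its brighter probe set. The other Tead1 probe set was higher in both lines, with means of 7.52 in NSCL61 against 6.55 in NSC and 6.54 in OPCL61 against 5.13 in OPC. The median log2 difference of the 10 genes was 1.31 in OPCL61 (0.05 over all genes) and -0.44 in NSCL61 (0.04 over all genes). In ASTL61 against AST, 0 of 10 genes passed in the limma fit, 0 had an unadjusted p under 0.05, and the count stayed 0 with array weights and under the other settings run; 0.0234% of all genes, or 3 genes, passed there. Tests were limma fits over all 12 arrays with Benjamini-Hochberg adjustment over 12835 genes and a threshold of 0.05 on the adjusted p. Fibroblast and pericyte markers moved with NSCL61 against NSC, where 7 of 8 tested fell (median -5.66). In OPCL61 against OPC 1 of 8 rose and the other 7 did not pass. Of the 9 listed, 8 were under the filter level in OPC and 6 in OPCL61. Markers of oligodendrocyte precursor cells moved with OPCL61 against OPC, where 7 of 8 fell (median -4.49). In NSCL61 against NSC 4 of these 8 fell, and 6 of 9 stem cell markers rose. Of 7 astrocyte markers, 4 fell and 1 rose in OPCL61. The part of these markers in the results was not tested.

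**Figure D2:**
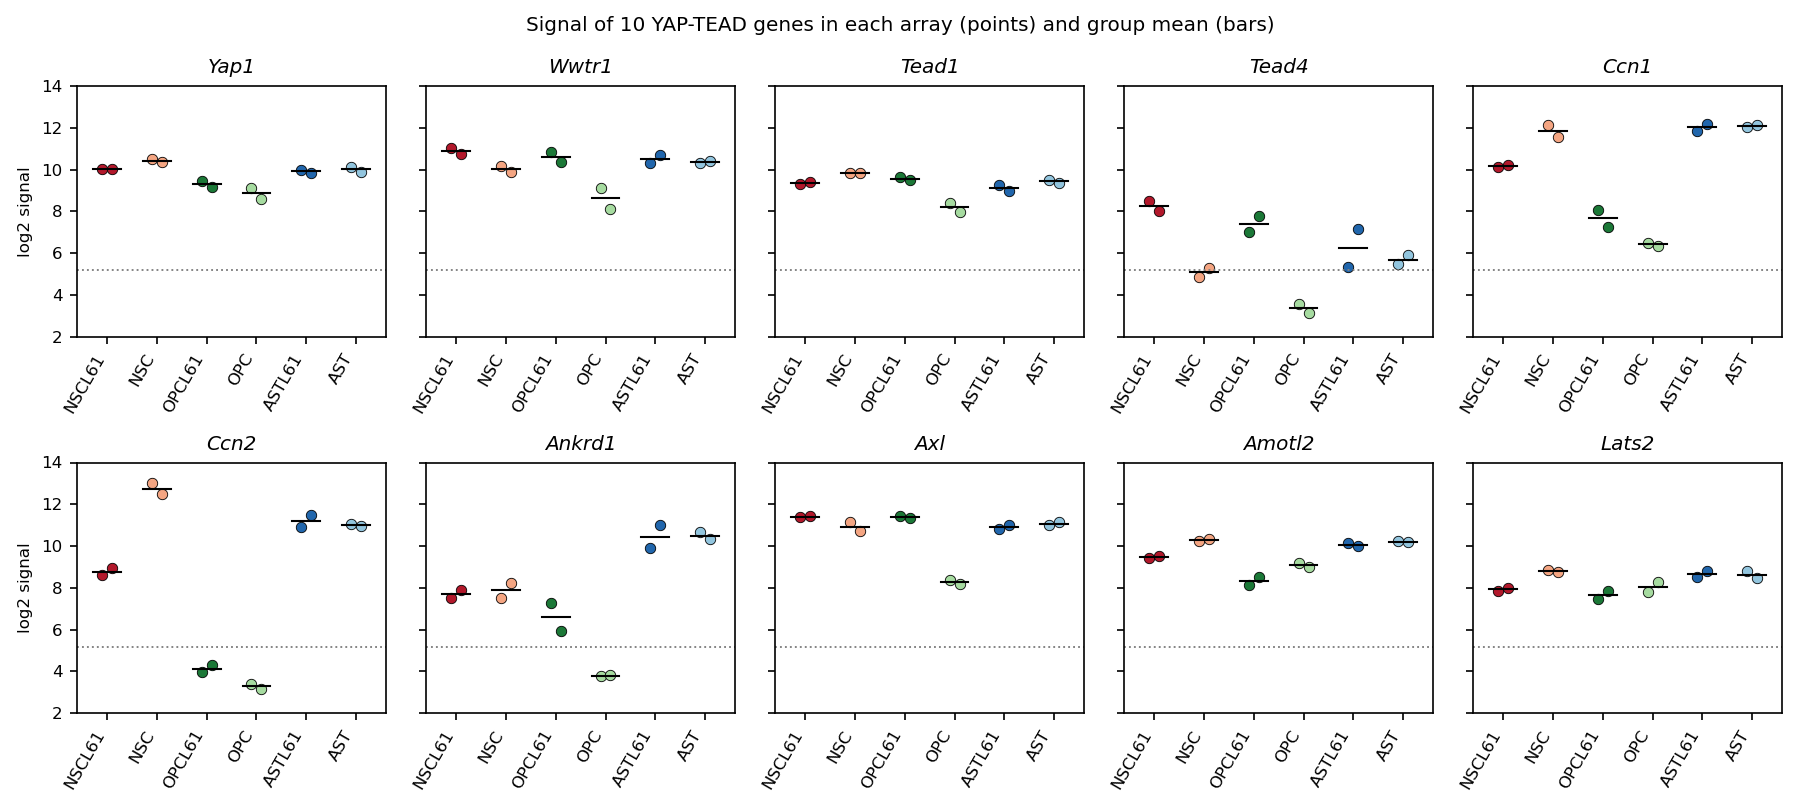
Log2 signal of the 10 genes on each array (points) with the group mean (bars), lines left of their parents; the dotted line is the filter level of 5.18. OPC arrays are the lowest group for 8 of the 10 genes, and Ccn2 lies under the dotted line in both OPCL61 and OPC.

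Yap1, the coactivator gene of the pathway, had log2 signals of 10.04 and 10.04 in NSCL61, against 10.49 and 10.36 in NSC. It had 9.43 and 9.16 in OPCL61, against 9.14 and 8.59 in OPC. It had 10.00 and 9.83 in ASTL61, against 10.11 and 9.90 in AST. By this probe set, the brighter of the 2, OPC was the lowest group and OPCL61 the next, each apart from the other groups, while NSCL61, AST and ASTL61 overlapped as neighbours in the order. On the other Yap1 probe set, OPCL61 (8.25 and 8.17) overlapped with ASTL61 (8.22 and 8.19). With the mean of its 2 probe sets, Yap1 rose in OPCL61 by 0.85 (limma, adjusted p = 0.00591). With the brighter probe set alone, none of the 3 line differences passed the limma test: -0.38 ± 0.18 in NSCL61 (SE, adjusted p = 0.133), 0.43 ± 0.18 in OPCL61 (adjusted p = 0.0782) and -0.09 in ASTL61, with a 95% interval of -0.51 to 0.32. In other limma fits of this probe set, the OPCL61 difference passed with a replicate block (adjusted p = 0.0314). The NSCL61 difference passed in the fit of the compared arrays alone (adjusted p = 0.0489). The OPCL61 difference passed in 1 of the 4 fits that left out an array: it was 0.71 without replicate 1 of OPC (adjusted p = 0.011) and 0.16 without replicate 2 of OPC (adjusted p = 0.512). Between parents Yap1 was lower in OPC than in NSC (log2 difference of -1.56 ± 0.18, adjusted p = 8.34e-05) and in AST (-1.14, adjusted p = 6.4e-04).

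Wwtr1, the gene of TAZ, stood at 11.03 and 10.75 in NSCL61, against 10.17 and 9.90 in NSC. In OPCL61 it was at 10.82 and 10.38, against 9.12 and 8.14 in OPC. In ASTL61 it was at 10.34 and 10.71, against 10.30 and 10.39 in AST. OPC again lay below every other group, and NSCL61, OPCL61, ASTL61 and AST each overlapped with the next in the order. Wwtr1 rose in OPCL61 by a log2 difference of 1.97 ± 0.29, or 3.93-fold (adjusted p = 4.67e-04). In NSCL61 it rose by 0.85 ± 0.29 (adjusted p = 0.0452), a call that was lost when any 1 of the 4 arrays was left out (adjusted p of 0.073 to 0.209). In ASTL61 the difference was 0.17, with an interval of -0.49 to 0.83. OPC was lower than NSC (difference of -1.41, adjusted p = 0.00301), and the difference was -0.92 without replicate 2 of OPC.

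Tead1, which encodes a TEAD factor, had 9.30 and 9.41 in NSCL61, against 9.85 and 9.85 in NSC. It had 9.64 and 9.49 in OPCL61, against 8.40 and 7.99 in OPC. It had 9.28 and 8.96 in ASTL61, against 9.51 and 9.37 in AST. OPC lay 0.92 below the next group, ASTL61, and the other 5 group means spanned 9.12 to 9.85. Tead1 rose in OPCL61 by 1.37 ± 0.16, or 2.59-fold (adjusted p = 1.05e-04). It fell by 0.49 ± 0.16 on the log2 scale in NSCL61 (adjusted p = 0.0351), a call lost without any 1 of the 4 arrays (adjusted p of 0.0898 to 0.168), and a second probe set gave the opposite direction, as described below. In ASTL61 the difference was -0.32, with an interval of -0.68 to 0.04.

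Tead4, a TEAD gene best known from the trophectoderm of the mouse embryo, had the widest range among the regulators. It was at 8.48 and 8.02 in NSCL61, against 4.87 and 5.29 in NSC. It was at 7.03 and 7.77 in OPCL61, against 3.56 and 3.15 in OPC. In ASTL61 the 2 arrays were apart from each other at 5.33 and 7.16, against 5.48 and 5.90 in AST. Both NSCL61 and OPCL61 stood above all 3 parents, and the mean of NSC (5.08) and that of OPC (3.35) were under the filter level, so differences against them may be lower bounds. Tead4 rose by 3.17 ± 0.51 in NSCL61 (adjusted p = 0.00111) and by 4.05 ± 0.51 in OPCL61 (adjusted p = 1.64e-04). The ASTL61 difference was 0.55, with an interval of -0.59 to 1.69, and it was -0.36 without replicate 2 of ASTL61.

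Ccn1, formerly Cyr61, encodes a secreted matricellular protein and is among the best characterised YAP targets. It was at 10.13 and 10.22 in NSCL61, against 12.15 and 11.57 in NSC. It was at 8.07 and 7.27 in OPCL61, against 6.50 and 6.34 in OPC. It was at 11.87 and 12.17 in ASTL61, against 12.04 and 12.14 in AST. AST, ASTL61 and NSC overlapped at the top, and NSCL61, OPCL61 and OPC followed without overlap. Ccn1 fell by 1.68 ± 0.26 in NSCL61 (3.21-fold lower, adjusted p = 9.1e-04) and rose by 1.25 ± 0.26 in OPCL61 (2.38-fold, adjusted p = 0.00324). In ASTL61 the difference was -0.07, with an interval of -0.65 to 0.51. Among the parents, OPC was 43.3-fold lower than NSC and 50.8-fold lower than AST (adjusted p = 2.19e-07 and 1.99e-07).

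Ccn2, formerly Ctgf, encodes the other matricellular target and varied more between groups than any other member. It was at 8.62 and 8.94 in NSCL61, against 13.04 and 12.47 in NSC. It was at 3.98 and 4.30 in OPCL61, against 3.41 and 3.17 in OPC. It was at 10.89 and 11.51 in ASTL61, against 11.04 and 10.96 in AST. The order was NSC, then ASTL61 and AST together, NSCL61, OPCL61 and OPC, with overlap between ASTL61 and AST alone. Ccn2 fell by 3.97 ± 0.25 in NSCL61, or 15.7-fold (adjusted p = 3.57e-06). In OPCL61 and OPC both means were under the filter level (4.14 and 3.29), so no fold is given; the adjusted p was 0.0179, and it was 0.102 without replicate 2 of OPCL61 and 0.104 without replicate 2 of OPC. In ASTL61 the difference was 0.20, with an interval of -0.35 to 0.75. OPC was lower than NSC (difference of -9.46 ± 0.25, adjusted p = 5.9e-09) and AST (-7.71, adjusted p = 2.34e-08), and as OPC was under the filter level both may understate the difference.

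Ankrd1 encodes an ankyrin repeat protein that is abundant in heart muscle and is a common YAP reporter gene. It had 7.50 and 7.91 in NSCL61, against 7.52 and 8.24 in NSC. It had 7.29 and 5.96 in OPCL61, against 3.76 and 3.84 in OPC. It had 9.90 and 11.00 in ASTL61, against 10.65 and 10.35 in AST. AST and ASTL61 overlapped at the top, NSC and NSCL61 overlapped in the middle, and OPC was alone under the filter level. Ankrd1 rose by 2.83 ± 0.46 in OPCL61 (adjusted p = 8.1e-04), which may be a lower bound, and the 2 OPCL61 arrays differed by more than those of any other group. The NSCL61 difference was -0.18, with an interval of -1.21 to 0.86, and that of ASTL61 was -0.05, with an interval of -1.09 to 0.98. In AST against NSC, Ankrd1 and Ccn2 passed in opposite directions: AST was higher in Ankrd1 (difference of 2.62 ± 0.46, adjusted p = 0.00287) and lower in Ccn2 (-1.76 ± 0.25, adjusted p = 9.35e-04).

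Axl encodes a receptor tyrosine kinase that binds GAS6. It was at 11.40 and 11.43 in NSCL61, against 11.15 and 10.70 in NSC. It was at 11.42 and 11.36 in OPCL61, against 8.36 and 8.17 in OPC. It was at 10.80 and 11.02 in ASTL61, against 10.99 and 11.16 in AST. OPC stood alone, 2.65 below the next group, and the other 5 groups lay within 10.91 to 11.41. Axl rose by 3.12 ± 0.16 in OPCL61, or 8.7-fold (adjusted p = 6.67e-07). In NSCL61 it rose by 0.48 ± 0.16 (adjusted p = 0.0398), a call lost without replicate 1 (adjusted p = 0.129) or 2 (0.148) of NSCL61 and without replicate 2 of NSC, where the difference was 0.26 (adjusted p = 0.265). The ASTL61 difference was -0.16, with an interval of -0.52 to 0.20.

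Amotl2 encodes an angiomotin protein that binds YAP and holds it at cell junctions. It was at 9.44 and 9.53 in NSCL61, against 10.25 and 10.36 in NSC. It was at 8.13 and 8.52 in OPCL61, against 9.19 and 8.99 in OPC. It was at 10.14 and 9.98 in ASTL61, against 10.24 and 10.20 in AST. Each line lay below its parent without overlap, and OPCL61 was the lowest of the 6 groups. Amotl2 fell by 0.82 ± 0.15 in NSCL61 (adjusted p = 0.00207) and by 0.76 ± 0.15 in OPCL61 (adjusted p = 0.00206). In ASTL61 the difference of -0.16 did not pass (adjusted p = 0.853, interval of -0.49 to 0.17).

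Lats2 encodes the Hippo kinase that phosphorylates YAP and TAZ. It was at 7.85 and 8.02 in NSCL61, against 8.84 and 8.75 in NSC. It was at 7.49 and 7.86 in OPCL61, against 7.79 and 8.28 in OPC. It was at 8.54 and 8.80 in ASTL61, against 8.79 and 8.46 in AST. The groups formed an upper set of NSC, ASTL61 and AST and a lower set of OPC, NSCL61 and OPCL61, with overlap within each set. Lats2 fell by 0.86 ± 0.20 in NSCL61 (adjusted p = 0.00811), or by 0.78 without replicate 1 of NSCL61, where it no longer passed (adjusted p = 0.0619). The OPCL61 difference was -0.36 (adjusted p = 0.168, interval of -0.81 to 0.09) and that of ASTL61 was 0.04, with an interval of -0.41 to 0.50. OPC was lower than NSC (-0.76, adjusted p = 0.0104) and AST (-0.59, adjusted p = 0.0328). The first call was lost without replicate 1 of NSC (adjusted p = 0.0511) or of OPC (0.0858, difference of -0.52), and the second without replicate 1 of OPC (0.23, difference of -0.35) or of AST (0.193).

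**Figure D3:**
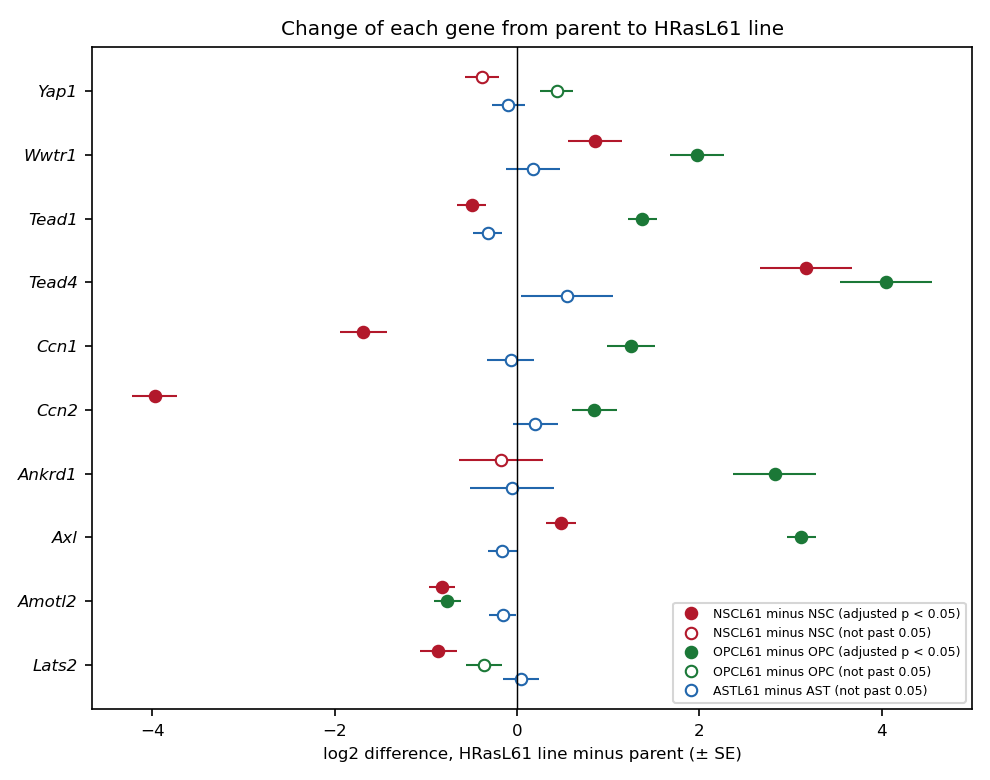
Log2 difference between each HRasL61 line and its parent for the 10 genes (points, with SE bars; values right of 0 are higher in the line). NSCL61 and OPCL61 lie on opposite sides of 0, both past the threshold (filled points), for Ccn1, Ccn2 and Tead1. The OPCL61 point of Ccn2 compares 2 group means under the filter level (4.14 and 3.29). The ASTL61 points lie between -0.32 and 0.55. Each gene is shown by its brightest kept probe set, and the other Tead1 probe set was higher in both NSCL61 and OPCL61 than in their parents.

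Between the parents, all 10 genes were lower in OPC than in NSC, where 51.5% of all genes passed and 24.3% were lower. All 10 were also lower in OPC than in AST, where 51.7% passed and 25.6% were lower. The median of the 10 was -1.69 against NSC (all genes, -0.01) and -2.03 against AST (all genes, -0.06); both comparisons use the same OPC arrays. The Tead4 call in OPC against NSC was lost without replicate 2 of NSC (adjusted p = 0.0863) or of OPC (0.0959). AST differed from NSC in 2 of 10 genes, Ankrd1 (higher) and Ccn2 (lower), where 30.4% of all genes passed, 15.4% higher and 15% lower. Markers of fibroblasts and pericytes moved with the OPC levels, as 8 of the 8 tested were lower in OPC than in NSC and 4 of 8 lower in OPC than in AST. In AST against NSC, 7 of 8 markers were lower (median -2.21), while the median of the 10 genes was 0.03. The part of these markers in the results was not tested.

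Among the lines, OPCL61 was lower than NSCL61 in 4 of 10 genes, Yap1, Ccn1, Ccn2 and Amotl2, where 26.7% of all genes passed and 13.4% were lower. Ccn1 differed by -2.50 ± 0.26 (adjusted p = 1.6e-04) and Ccn2 by -4.64 ± 0.25 (adjusted p = 1.89e-06), a size that may be a lower bound because OPCL61 was under the filter level, whereas Wwtr1 differed by -0.29 (interval of -0.95 to 0.37) and Axl by -0.02 (interval of -0.38 to 0.34). The Yap1 call (-0.74, adjusted p = 0.0155) was lost without either array of NSCL61 (adjusted p of 0.0819 and 0.0757) and without replicate 2 of OPCL61 (0.0839). ASTL61 differed from NSCL61 in 7 of 10 genes, where 32.7% of all genes passed (16.1% higher and 16.6% lower): Ccn1, Ccn2, Ankrd1, Amotl2 and Lats2 were higher and Tead4 and Axl lower. Ankrd1 was 6.71-fold and Ccn2 5.35-fold higher in ASTL61 (adjusted p = 0.00177 and 1.03e-04). OPCL61 differed from ASTL61 in 7 of 10 genes, where 36.6% passed (18.9% higher and 17.7% lower): Axl was higher, and Yap1, Ccn1, Ccn2, Ankrd1, Amotl2 and Lats2 were lower, Ccn1 by 20.3-fold (adjusted p = 3.42e-06). Fibroblast and pericyte markers moved with both comparisons: 6 of 8 were higher in ASTL61 than in NSCL61 (median 3.00) and 6 of 8 lower in OPCL61 than in ASTL61 (median -3.32), and their part was not tested.

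Several of these calls between lines were lost when 1 array was left out, which leaves 1 array in a group and fewer degrees of freedom. In ASTL61 against NSCL61 the differences then ran from -0.61 to -0.39 for Axl, from 0.50 to 0.66 for Amotl2 and from -2.91 to -1.09 for Tead4. Tead4 in ASTL61 against NSCL61 was -2.00 (adjusted p = 0.0143), but -1.09 without replicate 1 of ASTL61 (adjusted p = 0.0597) and -1.77 without replicate 1 of NSCL61 (0.0946). The calls of Axl in ASTL61 against NSCL61 and in OPCL61 against ASTL61 were each lost without any 1 of the 4 arrays (adjusted p of 0.0516 to 0.192 and 0.0555 to 0.202). The Amotl2 call in ASTL61 against NSCL61 was kept without replicate 2 of ASTL61 and lost without any 1 of the other 3 arrays (highest adjusted p 0.0933). The Lats2 call was kept without replicate 1 of ASTL61 and lost without any 1 of the other 3 (highest adjusted p 0.121). The Yap1 call in OPCL61 against ASTL61 was kept without replicate 1 of OPCL61 and lost without any 1 of the other 3. With the mean of probe sets that call was lost as well (-0.30, limma, adjusted p = 0.265). Calls of Ccn1, Ccn2 and Ankrd1 in ASTL61 against NSCL61 passed in all 13 settings run at the plain threshold.

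Whether the line changes themselves differed between cell types was tested as a difference of differences. The OPCL61 change exceeded the NSCL61 change in 6 of 10 genes (Yap1, Tead1, Ccn1, Ccn2, Ankrd1 and Axl), where 37.9% of all genes passed and 18% were higher. Tead1 is counted here by its brighter probe set, while its other probe set was higher in both lines than in their parents. For Ccn1 the difference of changes was 2.93 ± 0.37 (adjusted p = 2.52e-04). That of Ccn2 had an adjusted p of 8.67e-06, but its OPCL61 part compares 2 groups under the filter level, so no size is given here. Fibroblast and pericyte markers moved with these results, with 7 of 8 higher in the OPCL61 than in the NSCL61 change (median 7.13). In the ASTL61 change 7 of 8 were higher than in the NSCL61 change (median 7.06). Markers of oligodendrocyte precursor cells moved as well. In the OPCL61 change 5 of 8 were lower than in the NSCL61 change (median -3.02) and 7 of 8 lower than in the ASTL61 change (median -5.12). The part of both lists was not tested. For Tead4, which rose in both NSCL61 and OPCL61, the difference of these 2 changes was 0.88 (interval of -0.73 to 2.49). For Amotl2, which fell in both, it was 0.06 (interval of -0.41 to 0.52). The ASTL61 change differed from the NSCL61 change in 5 genes, 4 higher and 1 lower, where 25.3% of all genes passed (12.4% higher and 12.9% lower), and the OPCL61 change from the ASTL61 change in 7 genes, 6 higher and 1 lower, where 35.4% passed (17.1% higher and 18.3% lower).

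In a fit over all 23080 single-symbol probe sets, 18 of the 23 tested member probe sets passed in NSCL61 against NSC (37% of all), 16 in OPCL61 against OPC (48.8%) and 0 in ASTL61 against AST (0.0173%). The 2 Tead1 probe sets passed in opposite directions in NSCL61. The brighter one fell by 0.49 (adjusted p = 0.0371), and the other, at 7.55 and 7.48 in NSCL61 against 6.47 and 6.63 in NSC, rose by 0.97 (adjusted p = 0.00321). In OPCL61 the same 2 gave 1.37 and 1.42, and both passed.

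The Yap1 probe sets gave -0.38 (adjusted p = 0.136) and 0.61 (adjusted p = 0.0615) in NSCL61. In OPCL61 they gave 0.43 (adjusted p = 0.0786) and 1.27 (adjusted p = 0.00141). The second probe set was at 8.25 and 8.17 in OPCL61, against 7.33 and 6.56 in OPC, with no overlap. All 3 Wwtr1 probe sets rose in both lines, by 0.85 to 1.34 in NSCL61 and by 1.97 to 2.42 in OPCL61. Both Tead4 probe sets rose in both lines as well, the dimmer one by 1.65 in NSCL61 and 1.19 in OPCL61. All 4 Ccn1 probe sets fell in NSCL61 (differences of -2.02 to -1.62), and 3 of 4 rose in OPCL61, with 0.68 (adjusted p = 0.0569) for the other. Of those 3, 1 had means of 5.05 in OPCL61 and 4.09 in OPC, both under the filter level. The probe set that did not pass had 4.80 and 4.12, also under it. In AST against NSC, where 29.2% of all probe sets passed, 2 of the 4 Ccn1 probe sets were higher by 1.43 each, while the brightest one gave 0.23 (adjusted p = 0.562). The same 2 gave -0.95 and -0.98 in ASTL61 against AST, without passing (adjusted p = 0.336 and 0.403). Of the 5 tested Lats2 probe sets, 4 fell in NSCL61 (differences of -0.96 to -0.62), and the other gave -0.46 (adjusted p = 0.164). In OPCL61 that other probe set was at 5.17 and 5.61, against 4.93 and 4.87 in OPC, a difference of 0.49 (adjusted p = 0.12), while the remaining 4 gave -0.36 to -0.16, none of them past the threshold. The second Ankrd1 probe set rose by 2.19 in OPCL61 (adjusted p = 0.00308). Which transcripts each probe set reads was not analysed here.

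**Figure D4:**
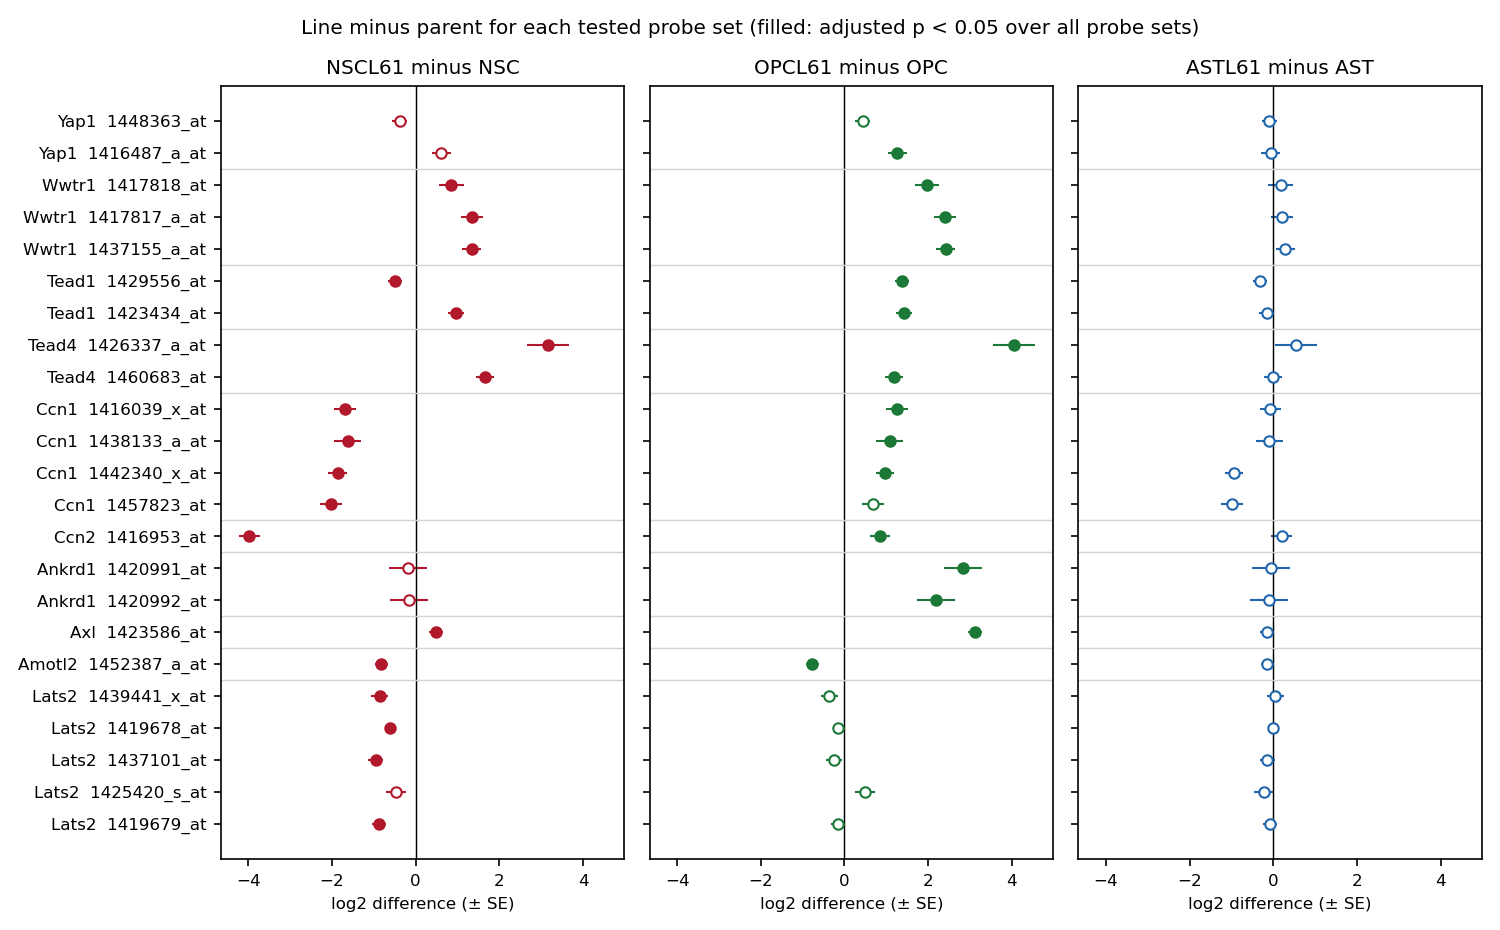
Log2 difference between line and parent for each of the 23 tested probe sets (filled points passed at an adjusted p of 0.05 over all probe sets). The 2 Tead1 probe sets lie on opposite sides of 0 in NSCL61 (-0.49 and 0.97) and together in OPCL61 (1.37 and 1.42).

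Other genes of the pathway were counted in 4 lists. Upstream Hippo kinases and scaffolds, 16 tested of 17 listed, split in both lines: 2 rose and 3 fell in NSCL61, and 5 rose and 5 fell in OPCL61. The shares of all genes that passed were 37.8% in NSCL61 (20.7% higher and 17.1% lower) and 48.5% in OPCL61 (24.5% higher and 23.9% lower). In NSCL61, Wwc1, a scaffold of LATS kinases, rose by 1.55 ± 0.18 while its relative Wwc2 fell by 1.30 ± 0.13 and the kinase gene Taok3 by 1.38 ± 0.15 (adjusted p of 1.66e-04, 6.88e-05 and 1.1e-04). In OPCL61, Frmd6, which encodes a FERM domain protein upstream of the kinases, rose by 2.26 ± 0.17 (adjusted p = 7.22e-06), while Taok3 fell by 1.72 ± 0.15 and the atypical cadherin gene Fat4 by 2.90 ± 0.31 (adjusted p = 1.91e-05 and 6.53e-05). The Fat4 mean in OPCL61 (3.50) was under the filter level. Taok3 was among the 3 smallest p-values in both lines.

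Of 9 other YAP and TEAD partners tested, 0 rose and 4 fell in NSCL61 (37.8% of all genes passed), and 3 rose and 2 fell in OPCL61 (48.5%). Vgll3, which encodes a TEAD cofactor, fell by 4.68 ± 0.24 in NSCL61 (adjusted p = 1.33e-06), the LIM protein gene Ajuba by 1.66 ± 0.19 (adjusted p = 1.31e-04) and the angiomotin gene Amot by 0.83 ± 0.25 (adjusted p = 0.026). In OPCL61, Limd1 fell by 1.99 ± 0.12 and Vgll4, which encodes a TEAD cofactor that competes with YAP, by 1.93 ± 0.22 (adjusted p = 2.26e-06 and 8.31e-05). Ajuba rose there by 0.96 ± 0.19 (adjusted p = 0.00225), opposite to its direction in NSCL61.

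Of 16 other YAP-TEAD targets, 4 rose and 9 fell in NSCL61 (median -0.92), where 20.7% of all genes were higher and 17.1% lower. In OPCL61, 6 rose and 1 fell (median 0.27), where 24.5% of all genes were higher and 23.9% lower. The medians over all genes were 0.04 in NSCL61 and 0.05 in OPCL61. Igfbp3, a binding protein of insulin-like growth factors, rose in both lines, by 7.54 ± 0.28 in NSCL61 (adjusted p = 1.58e-07) and by 2.92 ± 0.28 in OPCL61 (adjusted p = 2.91e-05). Ccdc80 fell in both, by 6.39 ± 0.33 in NSCL61 (adjusted p = 1.33e-06) and by 2.61 ± 0.33 in OPCL61 (adjusted p = 1.83e-04). Myof, which encodes a membrane repair protein, rose by 4.51 ± 0.18 in OPCL61 (adjusted p = 1.85e-07), and Rbms3 fell by 1.84 ± 0.17 in NSCL61 (adjusted p = 3.68e-05). Group means under the filter level, which may make these differences lower bounds, were those of Igfbp3 in NSC (4.64), of Ccdc80 in NSCL61 (4.61) and OPCL61 (5.10) and of Myof in OPC (5.04). Between parents 13 of these 16 were lower in OPC than in NSC and 1 was higher, where 51.5% of all genes passed and 24.3% were lower: Myof differed by -5.34 ± 0.18, Dock5 by -3.37 ± 0.30 and Igfbp3 by 5.24 ± 0.28 (adjusted p = 2.9e-08, 1.4e-05 and 4.15e-07).

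Targets of SRF and its cofactor MRTF, which respond to the state of actin, were tested as 10 genes. In NSCL61, 9 of 10 fell and 0 rose; the 3 smallest p-values belonged to the smooth muscle genes Actg2, Cnn1 and Tagln (-6.74, -5.19 and -7.16, adjusted p = 5.24e-08, 2.97e-07 and 1.51e-06). The NSCL61 means of Actg2 (4.24) and Cnn1 (4.80) were under the filter level. In OPCL61, 5 rose and 2 fell, with Fhl2 at 3.12 ± 0.22, Vcl at 1.86 ± 0.19 and Tpm1 at 1.25 ± 0.16 (adjusted p = 5.31e-06, 5.36e-05 and 2.02e-04). The shares of all genes that passed were 37.8% in NSCL61 (17.1% lower) and 48.5% in OPCL61. All 10 were lower in OPC than in NSC (24.3% of all genes) and than in AST (25.6%). The fibroblast and pericyte markers given above moved with them in NSCL61.

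In ASTL61 against AST, 0 genes of these 4 lists passed in the limma fit. At an unadjusted p under 0.05 there were 3 of 16 Hippo genes, 0 of 9 partners, 3 of 16 targets and 1 of 10 SRF and MRTF targets. The share of all genes under that unadjusted threshold is not given here. Neither these counts nor that of the 10 members can therefore be set against it. The smallest p in each list belonged to Wwc2 (-0.51), Limd1 (-0.17), Igfbp3 (0.76) and Tpm1 (-0.46), with adjusted p-values of 0.356, 0.823, 0.594 and 0.584.

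**Figure D5:**
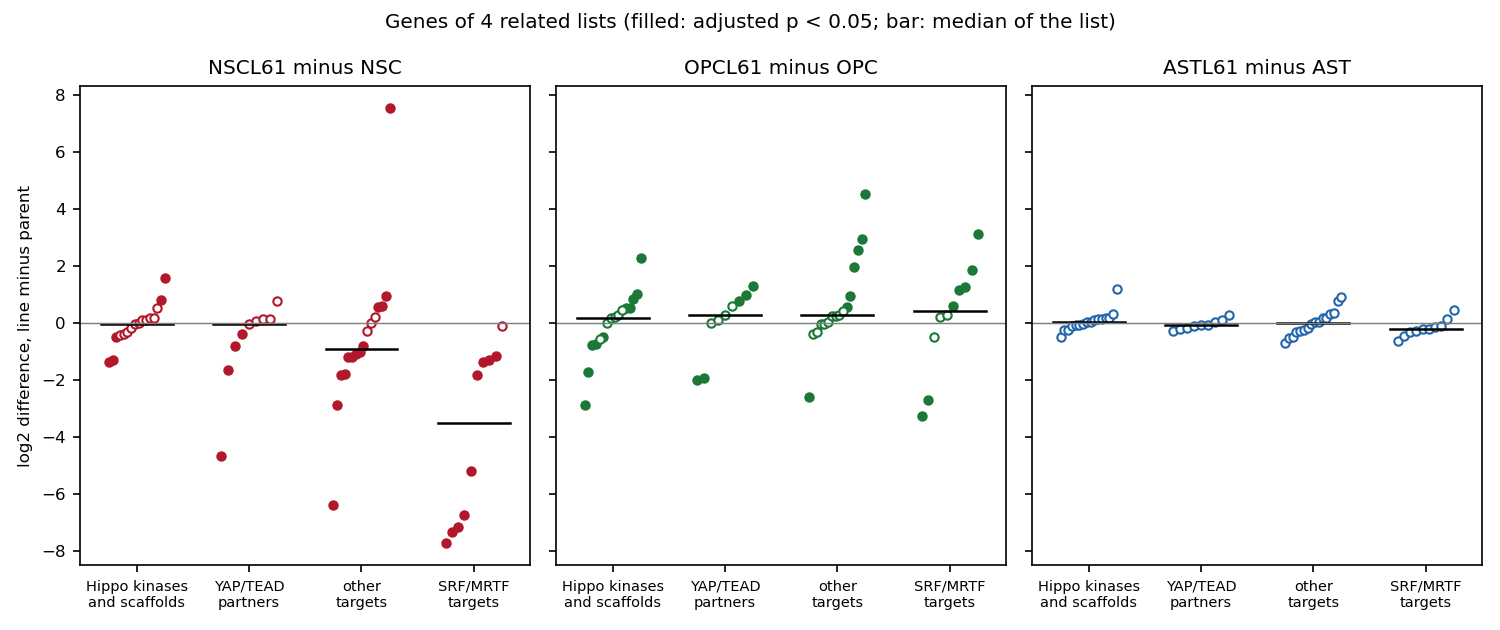
Log2 difference between line and parent for each gene of the 4 related lists (filled points passed at an adjusted p of 0.05; the bar is the list median). SRF and MRTF targets have a median of -3.51 in NSCL61 and 0.43 in OPCL61.

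Genes with the group profile most like that of Yap1, by root mean square difference of the 6 centred group means, were Echdc2 (0.0759), Pfkfb4 (0.0793), Fbxl2 (0.1), D2hgdh (0.109) and Map6 (0.142). Pfkfb4, an enzyme of fructose 2,6-bisphosphate turnover, had group means of 6.72 in NSCL61, 7.12 in NSC, 5.91 in OPCL61, 5.47 in OPC, 6.72 in ASTL61 and 6.82 in AST. Genes most like Ccn2 were Tpm2 (0.637), Cav1 (0.76), Pla2g4a (0.81), Serpinh1 (0.921) and Mmp14 (0.971). Tpm2, which encodes a tropomyosin, had means of 10.22 in NSCL61, 12.62 in NSC, 5.14 in OPCL61, 4.94 in OPC, 11.60 in ASTL61 and 11.31 in AST. The Ccn2 means themselves span more of the scale than those of Yap1, and the likeness rests on 6 group means that share the same arrays.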

How the data were processed

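The analysis started from log2 signal values that the authors deposited as 1 table of 12 arrays (2.14 to 14.3); per the labels' protocols, 5 µg of total RNA was biotin-labelled by in vitro transcription. How the signals were background-corrected, summarised and normalized was not given in the sources used here. Probe sets were named from the platform annotation: 34958 had 1 symbol, 932 had several, 9160 were not listed and 64 were controls. Probe sets stayed in the analysis if the mean of any group exceeded the median of the whole table (5.18), and a gene was represented by its brightest kept probe set. Differences were tested with limma 3.58.1 (R 4.3.3; lmFit and eBayes, 2-sided) on all 12 arrays with 6 group means, 6 residual degrees of freedom and Benjamini-Hochberg adjustment over 12835 genes; a second fit used 23080 probe sets. Standard errors, intervals (95%) and p-values come from these fits. With 2 arrays against 2, an exact permutation test cannot go below p = 0.333, so none was used. The number of arrays limits the precision.

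The 10 genes and all lists were chosen with earlier results of these data known. From each other list, up to 3 genes past the threshold with the smallest p were named, or the one with the smallest p where none passed; for Yap1 and Ccn2, the 5 genes with the closest group profile. Sox2, other cell type markers and single probe sets were named after their values were seen. Alternatives were quantile normalization, median centring, no filter or a 75th percentile filter, a trended robust prior, the mean of probe sets, array weights, a replicate block, fits of the compared arrays alone, a log2 difference of at least 1 and leaving out each array. Motif searches used Python 3.11.15 with pandas 2.3.3, and figures matplotlib 3.10.9.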

Additional observations from a re-analysis of the deposited data

Results flagged for a closer look

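The change between parent and HRasL61 line differed between cell types for 18 combinations of gene and comparison, each by a limma test of the difference of the 2 changes (adjusted p under 0.05, Benjamini-Hochberg over all genes). The OPCL61 change exceeded the NSCL61 change by a log2 difference of 4.82 for Ccn2, 3.00 for Ankrd1, 2.93 for Ccn1, 2.64 for Axl, 1.87 for Tead1 and 0.82 for Yap1. For Tead1 the value of 1.87 is that of its brighter probe set, while its other probe set was higher in both lines than in their parents. Ccn2 was under the filter level in both OPCL61 and OPC, so 4.82 does not measure the size of its difference, and Ankrd1 was under it in OPC. The first 5 of these passed in all 17 settings run at the plain threshold; that of Yap1 passed in 2 of the 8 fits that left out 1 array, and its other adjusted p-values reached 0.098.

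Compared with the NSCL61 change, the ASTL61 change was higher by 4.17 for Ccn2, 1.61 for Ccn1, 0.91 for Lats2 and 0.67 for Amotl2, and lower for Tead4 (-2.62). Amotl2 lost the call without any 1 of the 8 arrays (adjusted p of 0.0552 to 0.133). Lats2 kept it in 2 and Tead4 in 3 of those 8 fits, with adjusted p-values up to 0.148 and 0.0916; Tead4 was -1.70 without replicate 1 of ASTL61.

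Compared with the ASTL61 change, the OPCL61 change was higher by 3.49 for Tead4, 3.28 for Axl, 2.88 for Ankrd1, 1.80 for Wwtr1, 1.69 for Tead1 and 1.32 for Ccn1, and lower for Amotl2 (-0.61). Tead4 and Ankrd1 were under the filter level in OPC, so their values may be lower bounds. Amotl2 kept the call in 1 and Ccn1 in 5 of the 8 fits that left out 1 array (adjusted p up to 0.136 and 0.0694).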

How the results depend on the processing

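Of 74 member differences past the threshold, 1108 values were recomputed: 989 kept sign and call, 118 kept the sign and lost the call, and 1 changed sign. For 46 differences that did not pass, 692 values were recomputed: 21 passed with the same sign, 28 changed sign, and 0 did both. With the mean of probe sets, signs turned for Yap1 (0.12) and Tead1 (0.24) in NSCL61 against NSC, Lats2 in ASTL61 against AST (-0.0857), Tead1 (-0.38) and Lats2 (0.000497) in OPCL61 against NSCL61, and Yap1 (-0.19) and Tead1 (-0.48) in the ASTL61 against the NSCL61 change; averaging probe sets of opposite sign does this by construction for Yap1 and Tead1 in NSCL61.
When 1 array was left out, signs turned within these ranges: Ankrd1 -0.54 to 0.19 in NSCL61 against NSC, Ankrd1 -0.42 to 0.67 in the ASTL61 against the NSCL61 change, Ccn1 -0.0578 to 0.52 and Axl -0.0765 to 0.37 in AST against NSC, Wwtr1 -0.14 to 0.30 in OPCL61 against ASTL61, Axl -0.0524 to 0.00785 in OPCL61 against NSCL61, Amotl2 -0.14 to 0.25 in the OPCL61 against the NSCL61 change, Ccn1 -0.22 to 0.0800, Ankrd1 -0.60 to 0.50, Wwtr1 -0.0112 to 0.36, Tead4 -0.36 to 1.46, Ccn2 -0.11 to 0.51, Lats2 -0.12 to 0.21 and Yap1 -0.20 to 0.0118 in ASTL61 against AST. None of the values with a turned sign passed the threshold.
Counts of genes called moved by over 1.5 times in these cases. ASTL61 against AST gave 3 genes, 5 with array weights, 0 with the 4 compared arrays alone and 0 to 110 without 1 array. OPCL61 against ASTL61 gave 2598 with its 4 arrays alone (4702 with all 12), which leaves fewer degrees of freedom. Without 1 array the counts were 3004 to 4106 in NSCL61 against NSC, 2134 to 3037 in AST against NSC, 1784 to 2893 in OPCL61 against NSCL61, 2427 to 3408 in ASTL61 against NSCL61 and 2024 to 3011 for the ASTL61 against the NSCL61 change; member counts were 4 to 6, 3 to 5 and 2 to 4 in NSCL61 against NSC, ASTL61 against NSCL61 and that change. Requiring a log2 difference of at least 1 left 2099 genes and 3 members in NSCL61 against NSC, 2810 genes in OPCL61 against OPC, 3161 in OPC against NSC, 1335 in AST against NSC, 3080 in OPC against AST, 1321 in OPCL61 against NSCL61, 1702 and 4 members in ASTL61 against NSCL61, and 1843 and 4 members in OPCL61 against ASTL61. For the changes it left 3097 genes (OPCL61 against NSCL61), 2063 and 3 members (ASTL61 against NSCL61) and 2792 (OPCL61 against ASTL61). Correlations of same-numbered deviations between groups ran from -0.196 to 0.105. The lowest were those of ASTL61 with NSC (-0.196) and with NSCL61 (-0.192). These values cannot show whether arrays of different groups shared a culture or a batch. A replicate block gave 4781 genes and 7 members in NSCL61 against NSC, 6171 and 9 in OPCL61 against OPC and 2 and 0 in ASTL61 against AST. A crossed block, chosen after seeing the data, gave 4148 genes in ASTL61 against NSCL61 (4197 without a block, 4137 with it). Signals near the background limit Ccn2 in OPCL61 and OPC, Ankrd1 in OPC and Tead4 in NSC and OPC.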
